A study of Caenorhabditis elegans with 6 samples.

Results

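The transcriptome of wild-type Caenorhabditis elegans larvae starved in the first larval stage (L1) is described here by the level of each gene on the array. The description rests on 3 of the 6 arrays of the study, all from wild-type larvae, and no genotypes are compared. Each gene was represented by the brightest of its probe sets that carry a single gene symbol, averaged over the 3 arrays and ranked, which gave 17118 genes. Eggs were released from adults by bleaching and hatched at 20 °C in S-basal buffer without cholesterol, and the larvae were collected after 30 h without food. The study also profiled starved lin-35(n745) mutants, which enter no result below. From each culture 6 µg of total RNA was labelled with biotin and hybridised to a one-colour Affymetrix array, and the labels call the 3 wild-type arrays biological replicates.

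An L1 larva that hatches without food does not begin postembryonic development. Its blast cells stay undivided, it lives on reserves laid down in the egg, and it resumes development when fed. Insulin-like signalling through the receptor DAF-2 and the FOXO transcription factor DAF-16 is known to control this arrest, with the Cdk inhibitor cki-1 among the genes that hold the cell cycle. No fed larvae and no other time were measured alongside, so the values give levels during starvation and say nothing of what starvation altered.

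The deposited values are log2 expression values computed by RMA, in which a difference of 1 is 2-fold. A probe set's value depends on how well its probes bind as well as on the amount of transcript, so the ranks below order array signals and not numbers of transcripts. In whole larvae, fewer cells of a type and less RNA per cell cannot be told apart. The mean values of the 17118 genes ran from 2.82 to 13.92 with a median of 5.98. The 25th percentile was 4.30, the 75th percentile was 8.21, and the 90th percentile, above which a gene is said to be in the top decile, was 9.82. At 12 or above stood 273 genes, and 3076 were below 4. Background has no fixed value in these data. As a yardstick, the 1270 measured genes of the chemoreceptor families, most of which act in few sensory neurons, had a median of 4.0, and their 95th percentile of 5.56 is called the dim line. Above it stood 9377 genes, 54.8% of those measured. A gene under the line may be expressed in few cells or have weak probes, and is not shown to be silent.

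Wild-type replicate 2 stood apart from the other wild-type arrays. Across the 17118 genes, which are not independent replicates, the correlation was 0.990 between replicates 1 and 3, 0.981 between replicates 1 and 2 and 0.978 between replicates 2 and 3. The array medians over all probe sets were 5.93, 5.91 and 5.91. The 18 hybridisation control probe sets, which report RNA spiked in before hybridisation, had medians of 8.34, 9.42 and 8.28 on replicates 1, 2 and 3, and replicate 2 was the highest in 18 of 18. Signal at the 3' end over signal at the 5' end, a measure of RNA integrity and labelling, did not set replicate 2 apart in 1 direction. This log2 difference was 0.53, 0.70 and 0.78 for actin, 1.46, 1.45 and 1.62 for catalase, 0.0085, 0.13 and 0.13 for Gapdh, and 3.57, 3.45 and 3.41 for ubiquitin. Replicate 2 was thus between the others for actin and ubiquitin, the lowest for catalase and, by a small margin, the highest for Gapdh. Without replicate 2, 38 of the 40 brightest genes and 29 of the 30 families at the ends of the ranking were the same, 27 lists had a median above that of all genes, and 9550 genes were above a dim line drawn again.

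Ribosomal protein genes filled the top of the ranking. Of the 40 brightest genes, 33 carry the prefixes rpl or rps, for proteins of the large and small ribosomal subunits, and rplp-2.1 encodes a protein of the ribosomal stalk. The brightest, rpl-21, read 13.92, 13.88 and 13.96 on replicates 1, 2 and 3. Next was rps-25 at 13.86, 13.98 and 13.84. For both genes the arrays nearly coincided. The other 6 of the 40 were asp-1, cyc-2.1, mlc-2, col-160, col-93 and aldo-2. The intestinal aspartic protease gene asp-1 read 13.90, 13.84 and 13.92, and cyc-2.1, which encodes cytochrome c, read 13.65, 13.70 and 13.53. The myosin regulatory light chain gene mlc-2 read 13.50, 13.77 and 13.59, and the aldolase gene aldo-2 read 13.46, 13.43 and 13.48. The cuticle collagen gene col-93 was the least even of the 40, at 13.73, 13.09 and 13.81, with replicate 2 the lowest. The standard deviation (SD) over the 3 arrays was under 0.20 for 38 of the 40. Among the 100 brightest 64 were rpl or rps genes, and among the 500 brightest 73.

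**Figure D1:**
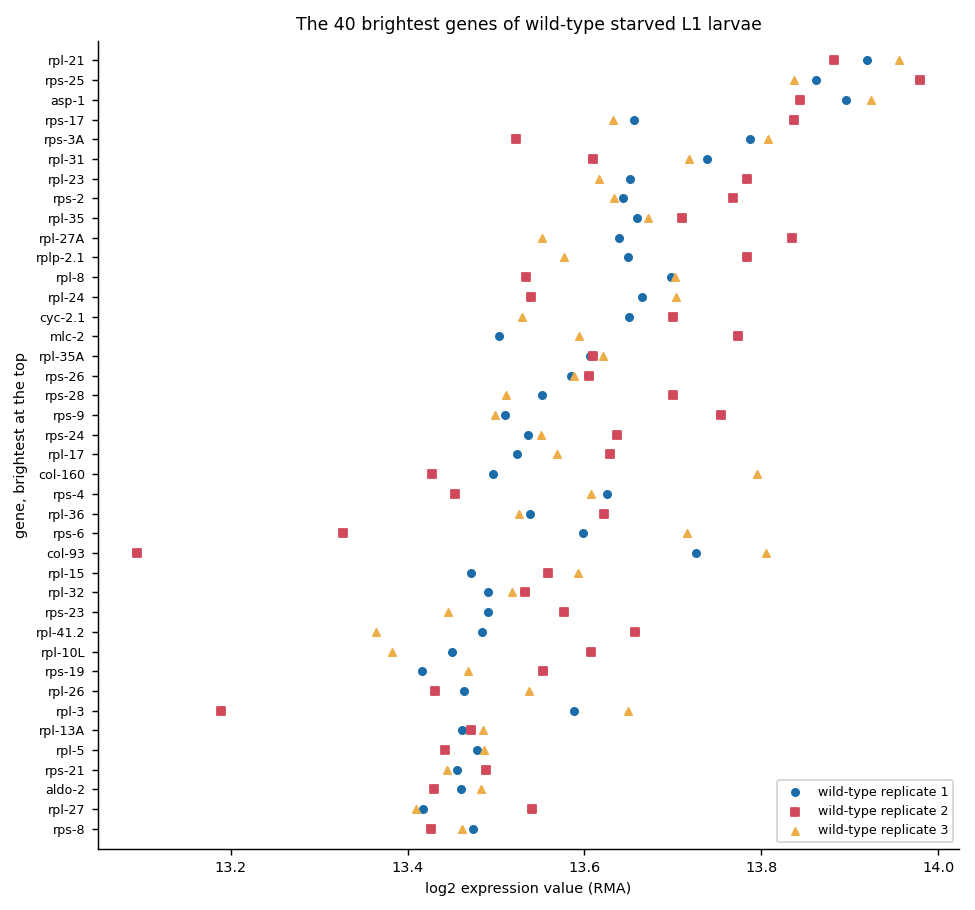
Log2 expression values (x axis) of the 40 brightest genes (y axis, brightest at the top), with 1 point per wild-type array and a colour and shape for each replicate. The points span 13.09 to 13.98, and col-93 on replicate 2 is the farthest from its partners.

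The probes limit what the very top of the ranking can show. Of the 40 brightest genes, 29 were read by probe sets whose identifiers mark them as able to match several transcripts, and without such probe sets 15 of the 40 remained among the 40 brightest. A ribosomal protein gene of the large subunit, rpl-8, had a second probe set at 3.42 beside the one at 13.64. RMA also brings the arrays to a common distribution, which can narrow the spread between arrays at the top.

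Genes of the energy-producing machinery stood high as well. Of the 8 measured genes that are encoded on the mitochondrial chromosome, a group picked after values were seen, 7 were in the top decile and the median was 12.13. Subunit genes of complex I and complex IV, ND4 and COX3, read 12.74 and 12.53 on average, and ND5 was the exception at 8.19. The nuclear cox family, 13 genes of cytochrome c oxidase and its assembly, had a median of 12.04. Its members were split: 7 were in the top decile, led by the subunit gene cox-5B at 13.04, 13.23 and 12.91, while the dimmest was cox-10, an assembly factor gene, at 6.45. All 9 listed genes of ATP synthase were above the dim line and 8 were in the top decile, with a median of 12.07. The beta subunit gene atp-2 read 12.73 on average and the germline isoform gene asb-1 the least of the list, 8.22. The complex I list does not include the mitochondrially encoded genes above. All 7 of its measured genes were in the top decile, with a median of 11.24 and a range from lpd-5 at 10.30 to nuo-1 at 11.55.

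By symbol prefix, 165 families had 10 or more measured genes, 5382 genes in all. The median of 107 families was above the dim line, 7 families had a median in the top decile of all genes, and 25 had one below the 25th percentile. Genes of one prefix share a naming rule and often a sequence type, and their probes can cross-hybridise, so family members are not independent. The order was led by rps (30 genes, median 13.44) and rpl (45 genes, 13.32). The dimmest rps gene, rps-20, still averaged 12.41, whereas rpl-42 averaged 4.71. After cox came the vha family of the proton-pumping vacuolar ATPase, with a median of 11.07 over 18 genes. Its brightest member, vha-16, read 11.68, 11.85 and 11.54, and its dimmest, vha-18, averaged 5.49.

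Both neuropeptide families followed. The 25 measured flp genes, which encode FMRFamide-like peptides, had a median of 10.92, and 19 of them were in the top decile. The brightest, flp-9, read 12.72, 12.85 and 12.43, and the dimmest, flp-23, averaged 4.25. Among the 58 nlp genes, a broader class of neuropeptide-like proteins, 32 were in the top decile and the median was 10.27. Their levels ran from nlp-17 at 12.33 down to nlp-39 at 3.50. Galectin genes of the lec prefix (12 genes) had a median of 10.14, and their brightest, lec-2, was uneven at 12.202, 11.18 and 12.95.

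The remaining 8 of the 15 highest families were mostly housekeeping classes. They were rab, of vesicle-traffic GTPases (median 9.61, brightest rab-14 at 11.69), mrpl, of the mitochondrial ribosome (9.35, mrpl-55 at 11.67), rpb, of RNA polymerase II (9.28, rpb-9 at 11.16), and sel, a prefix from a genetic screen (9.07, sel-9 at 11.75). Then came eif, of translation initiation (9.0, eif-3.F at 11.48), atg, of autophagy (8.96, atg-18 at 11.41), his, of histones (8.86, his-37 at 12.42), and rpn, of the regulatory particle of the proteasome (8.79, rpn-6.1 at 10.10). Most of these families had some members far below their median. The dimmest were rab-18 at 4.03, mrpl-45 at 3.68, sel-8 at 4.42, eif-4A3 at 4.30, atg-9 at 6.03, his-73 at 3.68 and rpn-6.2 at 5.86. The dimmest rpb gene, rpb-11, read 8.31.

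**Figure D2:**
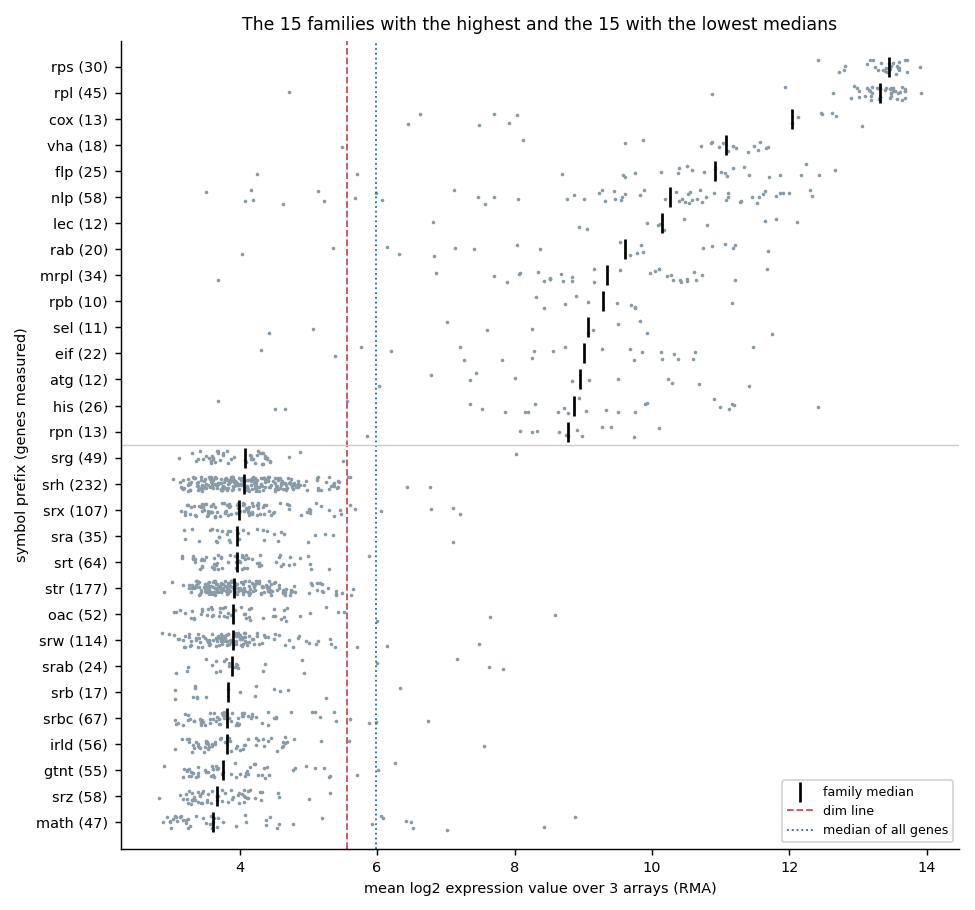
Mean log2 expression value over the 3 wild-type arrays (x axis) of every measured gene in the 15 families with the highest and the 15 with the lowest medians (y axis, with the number of genes), 1 point per gene. Black bars are family medians, the dashed line is the dim line at 5.56 and the dotted line the median of all genes at 5.98. The rps and rpl points lie almost wholly at the right edge, and the chemoreceptor families almost wholly left of the dim line.

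At the floor stood mostly chemoreceptor families. Of the 15 families with the lowest medians 11 are chemoreceptor families, which also set the dim line, so that their place below it is given by construction. The other 4 did not set it. The lowest median of all was that of the 47 math genes, named for a protein-interaction domain, at 3.61. Close to it were gtnt (55 genes, 3.76), irld (56 genes, 3.82), named for a receptor L domain, and oac (52 genes, 3.91), named for acyltransferase homology. Single members stood well above these families: math-33 averaged 8.88 and oac-46 averaged 8.59, whereas irld-34 stood at 7.56 and gtnt-42 at 6.25. The dimmest members were math-17 at 2.88, gtnt-19 at 2.90, oac-60 at 3.05 and irld-10 at 3.06. None of the 15 lowest families had a member in the top decile.

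Single chemoreceptor genes stood above their families. The values given here are for the chemoreceptor families among the 15 lowest only. The brightest of their leaders were srg-34 at 7.93, 8.32 and 7.82, srab-14 at 7.75, 8.24 and 7.49, and srw-85 at 7.07, 7.37 and 8.00. Below these came srx-45 at 7.20, sra-10 at 7.10, srh-271 at 6.77, srbc-20 at 6.74 and srb-16 at 6.34. No member of srt, str or srz averaged 6 or more, and their brightest were srt-42 at 5.89, str-182 at 5.64 and srz-21 at 5.32. Their dimmest members, srt-18 at 3.16, str-156 at 2.90 and srz-52 at 2.82, were among the dimmest genes on the array, with srz-52 the dimmest of all. The dimmest of the other chemoreceptor families among the 15 lowest lay between srw-119 at 2.87 and sra-2 at 3.18. The medians of all 15 lowest families were slightly higher on replicate 2 than on the other arrays, for example 4.23 against 3.97 and 3.95 on replicates 1 and 3 for the 232 srh genes.

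Some large families had members at both ends of the ranking. The asp family of aspartic proteases, 15 genes, had a lower quartile of 4.40 and an upper quartile of 12.42. After asp-1, the genes asp-6, asp-5 and asp-3 averaged 13.22, 12.90 and 12.85, while asp-11 averaged 3.60. The col family of cuticle collagens, 128 genes, had a median of 5.69, below that of all genes, yet 19 members were in the top decile. Of these, col-160 read 13.50, 13.43 and 13.79. Its probe set and that of col-93 can match several transcripts, so bright col genes may share signal. The clec family of C-type lectins, 220 genes, had a median of 4.37 with 8 members in the top decile, led by clec-63 at 12.73, 12.33 and 12.51. In the nhr family of nuclear receptors the median was 5.76, with quartiles of 4.38 and 7.74, near the 4.30 and 8.21 of all genes. Above the dim line stood 135 of its 254 genes, against 54.8% of all genes measured, and 11 were in the top decile. The 40 ttr genes, named for transthyretin-like domains, had a median of 8.61, and ttr-16 read 13.09, 13.08 and 12.94. For the fbxa family of F-box proteins the median over 171 genes was 4.20, and fbxa-6 was the brightest at 10.66.

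Markers of muscle, neurons and intestine stood high, while those of epidermis, pharyngeal glands, oocytes and the germline lay near the median of all genes. Those of sperm, yolk, the early embryo and males lay below it. Lists for stages, tissues and functions numbered 31, and 27 had a median above that of all genes. The body wall muscle list had the highest median of the tissue lists, 11.44, with 20 of 20 measured members above the dim line and 16 in the top decile. Behind mlc-2 came the troponin C gene pat-10 at 13.30, 13.38 and 13.19, the actin gene act-4 at 13.04, 13.01 and 13.04, and the light chain gene mlc-3 at 12.31, 12.49 and 12.26. The dimmest members were unc-52, which encodes perlecan of the muscle basement membrane, at 8.40 and unc-22, which encodes the giant protein twitchin, at 8.23. Pharyngeal muscle had a median of 8.71, with tnc-2, a pharyngeal troponin C gene, at 10.92 and the transcription factor gene ceh-22 at 6.27. The 7 genes of the pharyngeal glands had a median of 6.60, from phat-6 at 10.07 to phat-1 at 5.46.

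Neuronal markers had a median of 9.82, with 17 of 20 above the dim line and 10 in the top decile. The brightest were genes of neuropeptide processing. The chaperone gene sbt-1 read 13.11, 13.17 and 12.80, the proprotein convertase gene egl-3 read 12.68, 12.45 and 12.64, and the carboxypeptidase gene egl-21 read 12.40, 12.41 and 12.25. Both enzymes act on the precursors of FMRFamide-like and other neuropeptides, whose families also stood high. The synaptobrevin gene snb-1 averaged 11.63 and unc-119, widely used as a neuronal marker, 7.63. Below the dim line stood rgef-1 at 3.93 and unc-31 at 4.56, both known pan-neuronal genes in C. elegans, which shows that a gene of a well-represented tissue can read as dim on this array.

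Intestinal markers had a median of 9.45, with 13 of 14 above the dim line. Behind asp-1 came the intermediate filament gene ifb-2 at 12.599, 12.28 and 12.53, the metallothionein gene mtl-2 at 12.25, 12.58 and 12.23, and the cathepsin B-like protease gene cpr-6 at 11.74 on average. The gut esterase gene ges-1 averaged 8.99, the microvillar actin gene act-5 averaged 8.51, and elt-2, which encodes the GATA factor of the intestine, 6.98. The dimmest was the acid phosphatase gene pho-1 at 5.05, 5.21 and 3.73, below the dim line on each array. Epidermis and cuticle genes had a median of only 6.15 over 18 members, with 14 above the dim line. Cuticle collagen genes dpy-13 and sqt-3 averaged 11.69 and 11.05, and the epidermal factors lin-26 and elt-3 averaged 10.14 and 9.73. In contrast the collagen genes bli-1, known for the adult cuticle, and sqt-1 averaged 4.01 and 4.19, and dpy-7, a collagen gene known to be expressed in a cycle with the moults, read 6.67, 5.93 and 5.72. Of the smaller lists, glia had vap-1 at 9.82, fig-1 at 7.59 and ptr-10 at 4.28, and the coelomocyte genes cup-4 and unc-122 averaged 7.22 and 6.85.

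Yolk protein genes had a median of 4.87, and only vit-6 at 5.57 reached the dim line. The other probe set of vit-6 read 3.48, below the line, and the list median was 3.48 once shared probe sets were left out. The vitellogenin gene vit-2 read 3.11, 3.10 and 3.01, and vit-1 averaged 4.63. Of 27 sperm genes, mostly of the near-identical msp class of major sperm proteins whose probes cannot separate them, 9 were above the dim line and none was in the top decile, with a median of 5.21. The brightest were msp-65 at 6.80, msp-53 at 6.23, msp-59 at 6.09 and msp-55 at 6.00, and the dimmest spe-11 and spe-38 at 3.64 and 3.44. Oocyte and eggshell genes had a median of 6.05, led by mex-5 at 7.72, 6.17 and 7.68, where replicate 2 was low, and cpg-1 at 7.16, with egg-1 the dimmest at 4.51. Germline genes had a narrow range, from glh-2 at 5.04 to him-3 at 6.51, with a median of 6.01 and 10 of 14 above the dim line. The Notch receptor gene glp-1 averaged 6.32, the P granule gene pgl-1 averaged 6.21 and pgl-3 averaged 5.09. Newly hatched larvae carry the primordial germ cells and no gametes.

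Early embryo genes had a median of 5.43. The exceptions were skn-1 at 10.18, 9.56 and 10.54 and the caudal homologue pal-1 at 8.80, both of which also act after the embryo. The endoderm gene end-1 averaged 5.89, ceh-51 averaged 4.17 and tbx-37 averaged 3.45. Male genes had a median of 4.57, with the polycystin gene pkd-2 at 7.58 and cwp-2 and cwp-1, which are expressed with the polycystins in male neurons, at 3.53 and 3.54. One listed gene, ram-2, named for a defect of male tail rays, read 12.09, 11.60 and 12.64, which is far above the others of its list.

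**Figure D3:**
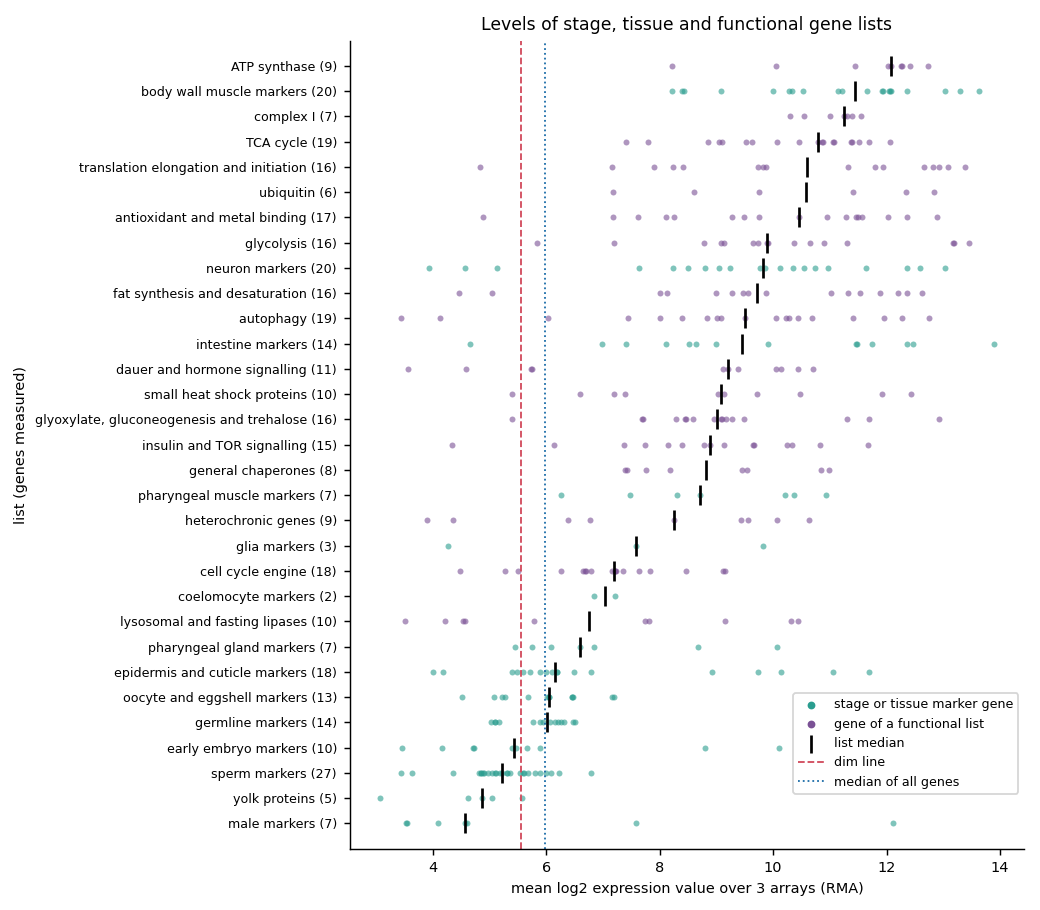
Mean log2 expression value over the 3 wild-type arrays (x axis) of every measured gene in 31 lists (y axis, with the number of genes), 1 point per gene, green for stage and tissue markers and purple for functional lists. Black bars are list medians, the dashed line is the dim line at 5.56 and the dotted line the median of all genes at 5.98. Body wall muscle and ATP synthase lie wholly to the right of both lines, and sperm, yolk, early embryo and male genes centre to the left.

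Central carbon metabolism was represented throughout. Of 19 tricarboxylic acid cycle genes 19 were above the dim line and 12 in the top decile, with a median of 10.80. The isocitrate dehydrogenase gene idha-1 read 11.94, 12.18 and 12.07, the citrate synthase gene cts-1 averaged 11.50, and the aconitase gene aco-2 was among the dimmest at 7.79. Glycolysis had a median of 9.90 over 16 genes, led by aldo-2 and by the glyceraldehyde-3-phosphate dehydrogenase genes gpd-2 and gpd-3 at 13.19 and 13.17, whose sequences are so alike that their probes may not separate them. The dimmest were hxk-2, a hexokinase gene, at 7.20 and pfk-1.2, a phosphofructokinase gene, at 5.84. In the list of the glyoxylate pathway, gluconeogenesis and trehalose the median was 9.02. The phosphoenolpyruvate carboxykinase genes pck-2 and pck-1 read 12.93, 12.85 and 12.99, and 11.22, 11.10 and 11.61. The malate dehydrogenase gene mdh-1 averaged 11.69, the trehalose-phosphate synthase gene tps-1 averaged 9.49, and icl-1, the glyoxylate cycle gene, read 8.63, 8.46 and 8.28. The trehalase genes tre-2 and tre-4 were the dimmest, at 7.69 and 5.40.

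Lipid genes were split. In the list of fat synthesis and desaturation 8 of 16 genes were in the top decile, with a median of 9.71. The desaturase genes fat-2 and fat-3 averaged 12.62 and 12.37 and the elongase gene elo-1 averaged 12.19. Of the stearoyl- and palmitoyl-CoA desaturase genes, fat-6 read 11.87, 12.26 and 11.53, whereas fat-5 and fat-7 averaged 5.05 and 4.47, below the dim line. The lipase list had a median of 6.76. Lysosomal lipase genes lipl-5 and lipl-2 averaged 10.44 and 10.32, the triglyceride lipase gene atgl-1 averaged 9.14 and the fasting-induced fil-1 averaged 7.81, while lipl-3 and lipl-4 averaged 4.21 and 3.52.

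Protein synthesis and turnover stood high beyond the ribosome itself. Elongation and initiation factor genes had a median of 10.59, led by eef-1A.1 at 13.38, eef-1B.1 at 13.09, iff-2 at 12.92 and eef-2 at 12.82, with the cap-binding isoform gene ife-5 the dimmest at 4.84. The ubiquitin list had a median of 10.58, with the ubiquitin-ribosomal fusion gene ubq-2 at 12.84, the E2 enzyme gene let-70 at 12.34 and polyubiquitin ubq-1 at 11.41. Its dimmest were the SUMO gene smo-1 at 8.61 and the NEDD8 gene ned-8 at 7.18. Autophagy genes had a median of 9.50, and 17 of 19 were above the dim line. The Atg8 homologues lgg-1 and lgg-2 read 12.75, 12.83 and 12.67, and 12.23, 12.21 and 12.38. The cargo receptor gene sqst-1 averaged 11.96 and atg-18, of phagophore growth, 11.41, while epg-3 and epg-5 were below the dim line at 4.13 and 3.45.

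Stress-defence genes had members at both ends. The antioxidant and metal-binding list had a median of 10.45, with the peroxiredoxin gene prdx-2 at 12.88, ferritin ftn-2 at 12.03 and metallothionein mtl-1 at 11.48, 11.74 and 11.50. The manganese superoxide dismutase gene sod-3, a known DAF-16 target, read 10.14, 9.78 and 9.33, and the dimmest were sod-5 at 7.17 and the neuronal thioredoxin gene trx-1 at 4.88. Small heat shock protein genes had a median of 9.08. In that list hsp-12.3 averaged 12.42, and hsp-12.6, another known DAF-16 target, read 11.65, 12.25 and 11.84. Next were hsp-12.2 at 10.48 and hsp-43 at 9.72. The dimmest were hsp-12.1 at 5.39 and the heat-inducible hsp-16.41, which was uneven at 5.27, 8.10 and 6.44 with replicate 2 the highest. General chaperones had a median of 8.82. The mitochondrial and cytosolic HSP70 genes hsp-6 and hsp-1 averaged 10.98 and 10.84, hsp-110 averaged 9.55 and hsp-3, of the endoplasmic reticulum, 9.45. The related hsp-4, which is induced by unfolded proteins in that compartment, averaged 7.39, and cdc-48.2 averaged 7.43.

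Genes that are known to govern the arrest were measured at middle to high levels, with exceptions. In the insulin and TOR list, with a median of 8.89, the AMP-activated kinase gene aak-2 read 11.67, 11.53 and 11.80, the kinase genes akt-1 and akt-2 averaged 10.83 and 10.34, and daf-16 read 10.40, 10.08 and 10.26. The insulin receptor gene daf-2 read 4.26, 4.07 and 4.68, below the dim line on all 3 arrays, and the S6 kinase gene rsks-1 averaged 6.13. Probe sets of daf-16 itself disagreed, with the dimmest of 4 at 4.74. Insulin-like peptide genes of the ins prefix, 23 genes, had a median of 5.68 and were led by ins-35 at 11.57, 12.08 and 11.26. In the list of dauer and hormone signalling, with a median of 9.20, the SMAD and Ski genes daf-3 and daf-5 averaged 10.71 and 10.44, the receptor gene daf-4 averaged 10.14 and the nuclear receptor gene daf-12 read 10.21, 9.40 and 10.56. The dimmest of 3 probe sets of daf-12 averaged 3.52. The SMAD gene daf-8 at 4.58 and daf-36, which encodes an oxygenase of dafachronic acid synthesis, at 3.57 were under the dim line.

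Cell cycle genes were of middling level and none was in the top decile. The median of the 18 genes was 7.19 and 15 were above the dim line. The Cdk inhibitor gene cki-1 was the brightest, at 9.38, 8.81 and 9.25. The cyclin B gene cyb-3 was uneven at 10.08, 8.03 and 9.25, the anaphase regulator gene fzr-1 averaged 8.47 and cdk-1 averaged 7.83. Cyclin E, cye-1, read 4.45, 4.42 and 4.59 and cdk-2 averaged 5.28, both below the dim line, and the retinoblastoma homologue lin-35 read 7.49, 7.15 and 7.45. Among 9 heterochronic genes, which time larval cell fates, the median was 8.25. The RNA-binding gene lin-28 read 10.66, 10.68 and 10.54, hbl-1 averaged 10.07, and the Argonaute genes alg-1 and alg-2 averaged 9.56 and 9.44. At the other end lin-42, the period homologue, averaged 4.36 and lin-14 read 3.89, 3.94 and 3.86. LIN-14 is known to act in the L1 stage, so its low value is another case in which a dim reading cannot be read as absence.

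Transcription factor genes lay near the middle of all genes. The 371 genes of the nhr, ceh, hlh, elt, fkh, zip, atf, dpl and efl prefixes, with daf-16, daf-12, skn-1, pha-4 and pqm-1, had a median of 5.85. Of them 207, or 55.8%, were above the dim line, close to the 54.8% of all genes, and 23 were in the top decile. The brightest was the nuclear receptor gene nhr-88 at 12.55, 12.52 and 12.64, followed by the forkhead gene fkh-9 at 12.11, 11.44 and 12.28 and the basic helix-loop-helix gene hlh-11 at 11.93, 11.78 and 12.03. Then came nhr-18 at 11.10, nhr-49, a known regulator of fat use, at 11.01, nhr-34 at 10.64 and ceh-20, the Pbx homologue, at 10.49. From 10.48 down to 10.08 stood nhr-100, fkh-7, nhr-10, daf-16, zip-2, nhr-3, skn-1 and nhr-109. The TFEB homologue hlh-30, of autophagy and lysosomal genes, averaged 10.04, pqm-1 averaged 9.09 and the pharyngeal organ-identity gene pha-4 averaged 7.74.

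The 3 wild-type arrays differed more in the middle of the range than at its ends. Of the 9377 genes above the dim line, 1152 spanned at least 2-fold between their highest and lowest array, 12.29%, and 160 spanned at least 4-fold. The median SD was 0.23 above the line and 0.15 below it. By level, the share spanning 2-fold was 0.26% for genes under 4, 14.8% between 6 and 8, and 2.56% at 12 or above. Replicate 2 was the array apart in most of them. In 767 of the 1152 genes, 66.6%, replicate 2 was farther from the other arrays than they were from each other, lower in 492 genes and higher in 275. Over all genes above the dim line it was the array farther away in 49.2%. Between replicates 1 and 3 only 234 genes, 2.50%, differed by 2-fold or more, against 604 between replicates 1 and 2 and 888 between replicates 2 and 3. Without replicate 2, with the dim line drawn again, 260 genes spanned 2-fold. Leaving out any array can only narrow a gene's range, and the count was 877 without replicate 1 and 591 without replicate 3.

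The widest spread was that of fmo-2, which encodes a flavin-containing monooxygenase, at 4.80, 9.46 and 6.99. Next were C53C7.5 at 9.57, 6.33 and 10.59 and F46C5.1 at 5.57, 9.76 and 6.57. The sugar transporter gene swt-3 read 6.90, 11.02 and 8.05. In each of these replicate 2 was at an end of the range, and replicate 1 and replicate 3 also differed by 1 or more for all but F46C5.1, where they differed by just under that. The pattern was not uniform across the 30 most variable genes. Replicate 2 was apart and lower in 16 and apart and higher in 7. The MAX-like factor gene mxl-3 was high on replicate 2 at 4.84, 8.89 and 6.38, as were T07E3.4, R10D12.1 and Y42G9A.3. On the low side stood the laminin gene lam-2 at 6.87, 4.11 and 7.58, the nucleolin gene nucl-1 at 8.44, 5.73 and 8.75, the polyprotein allergen gene npa-1 at 9.65, 7.65 and 10.96, and F14D2.19, T24H7.2, H06I04.3, C33D9.5, ccar-1, ccdc-55, Y8A9A.2, C30E1.9 and gldi-11. Replicate 3 was apart in 1 gene, tag-278, at 6.30, 4.94 and 8.43. The remaining genes set replicate 1 apart, among them R11D1.3 at 6.14, 9.31 and 8.54. The gene pud-4 read 6.50, 9.55 and 9.59, the alcohol dehydrogenase gene adh-1 read 8.59, 11.89 and 11.06, and the lectin genes clec-266 and clec-47 read 9.22, 5.89 and 6.77, and 5.05, 8.26 and 7.47. The gene F59C12.4 read 10.90, 8.05 and 6.84, so that replicates 1 and 3 were its extremes.

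**Figure D4:**
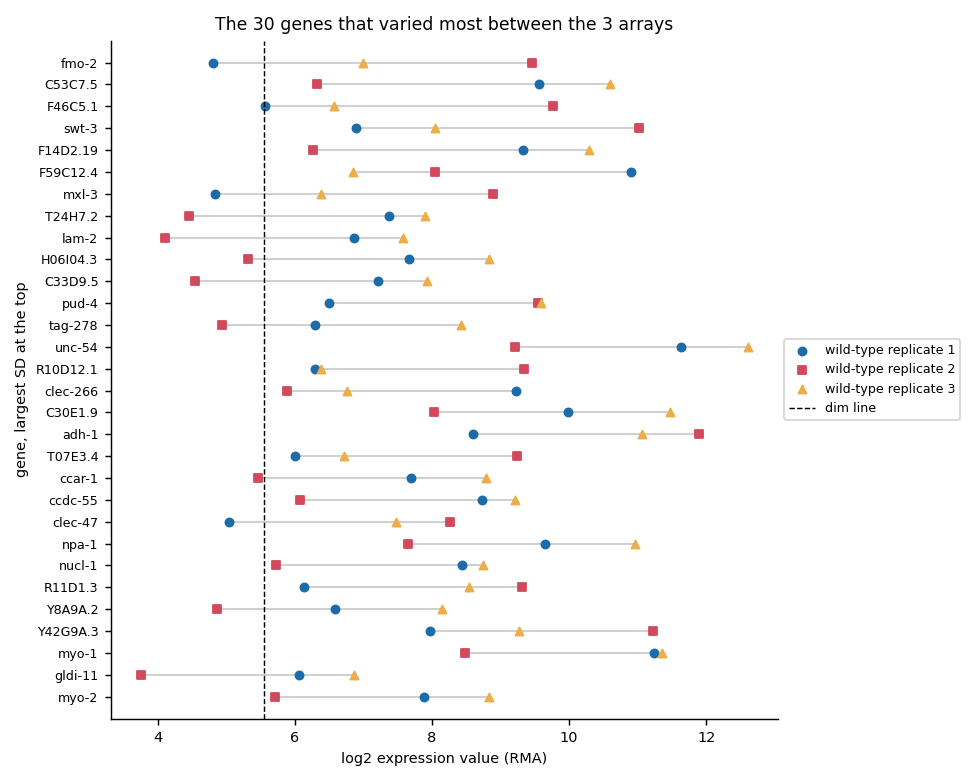
Log2 expression values (x axis) of the 30 genes with the largest SD among those above the dim line (y axis, largest SD at the top), 1 point per wild-type array, with the dashed line at the dim line of 5.56. Replicate 2 lies at the left end for genes such as unc-54 and lam-2 and at the right end for fmo-2, swt-3 and mxl-3.

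Many muscle genes read lower on replicate 2, and by unequal amounts. The myosin heavy chain genes unc-54, myo-1 and myo-2 were among the 30 most variable. In body wall muscle unc-54 read 11.63, 9.21 and 12.601, and in pharyngeal muscle myo-1 read 11.24, 8.48 and 11.36 and myo-2 read 7.89, 5.71 and 8.83. The other heavy chain genes, chosen after their values were seen, did likewise: myo-3 read 9.48, 7.37 and 10.42 and myo-5 read 8.84, 6.58 and 9.49. For these 5 heavy chain genes replicate 2 lay 2.58 to 2.91 below the mean of the other arrays. Light chain genes of the same tissue did not share the difference, since replicate 2 minus the mean of the others was -0.11 for mlc-1, 0.23 for mlc-2 and 0.21 for mlc-3. The genes of the giant muscle proteins, also chosen after their values were seen, lay between these by that measure. Of them, unc-89 read 10.27, 9.12 and 11.46 and ttn-1 read 8.29, 7.33 and 9.67. For both, replicate 3 lay farther above replicate 1 than replicate 2 lay below it, so replicate 3 was the array apart. Other muscle genes were likewise unequal. Replicate 2 minus the mean of the others was -1.33 for tnt-2 and -1.54 for tnt-4, both troponin T genes, and -1.30 for the paramyosin gene unc-15, but 0.13 and 0.39 for the troponin C genes pat-10 and tnc-2. Replicate 2 was the lowest array in 17 of the 20 body wall muscle genes, against 36.8% of all genes above the dim line. The list median was 11.67, 11.01 and 11.80 on the 3 arrays, so body wall muscle remained a bright list on each. It was also the lowest in most genes of some sets outside muscle, in 12 of 15 cell cycle genes, 22 of 28 let genes, 29 of 42 lin genes and 9 of 10 taf genes above the dim line. The part of RNA integrity in this was not tested.

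In many families replicate 2 was mostly the highest array, and 6 of them are described here. In the flp family replicate 2 was the highest array in 24 of 24 genes above the dim line, in nlp in 43 of 51, in ins in 9 of 12, in nssp in 31 of 38, in ttr in 27 of 31 and in the glutathione transferase family gst in 27 of 34. Among all 9377 genes above the line it was the highest in 43.7%. These families were picked after their values were seen, and their counts are descriptions of 3 arrays. Other families shared this, such as the spp prefix with 11 of 13, acr with 12 of 14, cox with 10 of 13 and clec with 34 of 51. Others did not, as in rpn, where replicate 2 was the highest in 1 of 13. In the cyp family of cytochromes P450, which like gst acts in detoxification, it was the highest in 16 of 34. The median deviation of replicate 2 from the mean of the 3 arrays was 0.39 for ins, 0.36 for nssp, 0.32 for flp, 0.29 for gst, 0.27 for nlp, 0.26 for ttr and 0.04 for cyp. Replicate 3 deviated the other way, by -0.43, -0.46, -0.31, -0.26, -0.25, -0.33 and -0.05 in the same order. The median deviation of replicate 1 ran from -0.08 for cyp to 0.11 for nssp. Single members differed more, such as flp-18 at 12.02, 12.70 and 11.81 and ins-35 above. The brightest members gst-20 at 12.93, ttr-16 and nssp-64 at 11.80 lay in the top decile.

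**Figure D5:**
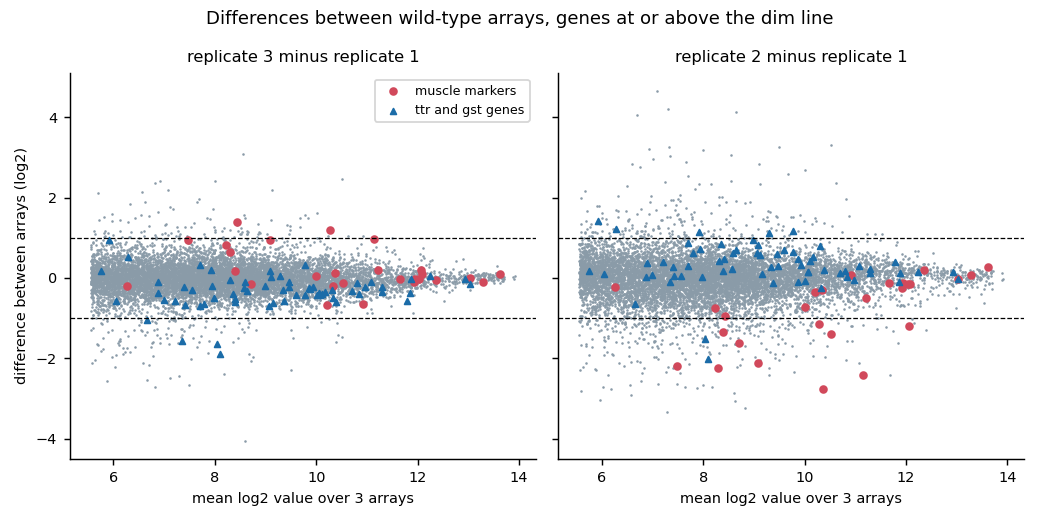
Difference in log2 expression value between wild-type arrays (y axis) against the mean over the 3 arrays (x axis) for the genes above the dim line, replicate 3 minus replicate 1 on the left and replicate 2 minus replicate 1 on the right. Red circles are body wall and pharyngeal muscle markers, blue triangles ttr and gst genes, grey points all others, and the dashed lines mark 2-fold. On the right most muscle genes lie below 0 and most ttr and gst genes above it, while on the left most muscle genes lie closer to 0. Exceptions include unc-89, ttn-1 and unc-22, which lie above 0 on the left and farther from it than on the right. For ttr and gst replicate 3 was below replicate 1 by median deviation from the mean of the 3 arrays. These medians were 0.005 on replicate 1 and -0.33 on replicate 3 for ttr, and 0.007 and -0.26 for gst.

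Replicates 1 and 3 also differed from each other in some genes. Beside F59C12.4 and pud-4, and chosen after their values were seen, the asparagine synthetase gene asns-2 read 9.26, 6.60 and 6.58, and the cuticle genes dpy-14, dpy-17 and noah-2 read 8.82, 6.18 and 6.33, 9.88, 7.17 and 7.47, and 8.11, 6.03 and 5.93. In each of these 4 replicate 1 was the highest by more than 2 log2 units.

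The 10 most even genes among the 1000 brightest all had an SD of about 0.01 or less. The mitochondrial ribosomal protein gene mrps-14 read 11.18 on each array, and F36A2.7 read 12.66, 12.67 and 12.66. The zinc finger gene ztf-7 read 13.23, 13.24 and 13.23, the fumarase gene fum-1 averaged 11.37 and tct-1, the translationally controlled tumour protein homologue, 13.03. The other 5 of the 10 were rpl-35A, gpd-2, rps-26, rps-14 and rps-11.

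Genes that carry a sequence name and no assigned symbol were dimmer but not absent from the top. Their 6718 genes had a median of 5.19 against 6.58 for the 10400 others, and 44.9% against 61.1% were above the dim line. They made up 99 of the 500 brightest genes, 19.8%. The brightest of them, M60.4, read 13.12, 13.26 and 12.99, yet its other probe set read 2.87, so its level rests on the choice of probe set. The next ones, chosen after their values were seen, were F01G4.6 at 12.99 and Y15E3A.4 at 12.98.

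Disagreement between probe sets of one gene was common. Of the 2981 genes with more than 1 single-symbol probe set, the brightest and the dimmest differed by a median of 1.04, and in 691 genes, 23.2%, one lay above and another at or below the dim line. The 10 widest were M60.4, rpl-8, spig-11, F26F12.3, lev-11, hmg-1.1, Y53F4B.45, spc-1, mtm-3 and rpl-12. In lev-11, which encodes tropomyosin and is known to be spliced into several isoforms, 7 probe sets ran from 3.49 to 11.92. In spc-1, the alpha spectrin gene, 3 ran from 2.92 to 11.08. Of other genes named above, the dimmest probe set averaged 4.90 for hbl-1, 4.70 for unc-89, 7.73 for fkh-9 and 8.01 for nhr-88. The brightest probe set was used throughout, which favours genes with many.

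Some bright genes lay next to each other. Of the 481 of the 500 brightest genes with a measured neighbour in the gene table, 75 had a neighbour that was also among the 500 brightest, 15.6%, against 5.32% of the 15653 genes with a measured neighbour. For the 100 brightest it was 10 of 98, or 10.2%, against 1.15%. Neighbours can be paralogues read by the same probes or members of one operon, and neither was examined.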

How the data were processed

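The values deposited by the authors are on the log2 scale, with 1 value for each probe set on each array, and were made with RMA per the submitters' processing notes, which give no version. RMA subtracts background, equalises the distributions of the arrays and summarises the probes, so it can hide a shift of all transcripts and compress the top and the floor. The table held 22625 probe sets; 77 controls were set aside. Of the other 22548, 20766 had 1 symbol in the platform annotation, 887 several and 895 none. Only the first were used. Through Entrez identifiers 20701 were found in the WBcel235 gene table and 0 symbols differed. The 3 arrays limit the precision, and p-values were not computed because no groups were compared.

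Means, SDs, ranks, family and list medians were computed in Python 3.11.15 with pandas 2.3.3 and numpy 2.4.6. The ranking, the 2-fold span and the choice of the array apart were tested on simulated data, but family and list medians were not. The members and lists were chosen with earlier results of these data known. Named genes were the 40 brightest, the 30 most variable above the dim line, the 10 most even of the brightest 1000, the brightest and dimmest members of the 15 highest and 15 lowest families, up to 4 bright and 2 dim members of each list, 15 transcription factors, the 10 widest probe set disagreements and fixed anchors. Others are marked in the text or were named as further members of a list or family after their values were seen. Alternatives were the median of arrays, the mean of probe sets, probe sets of single transcripts, recentring, repeated quantile normalization, leaving out each array, other dim lines, another range and smaller families.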

Additional observations from a re-analysis of the deposited data

How the results depend on the processing

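No difference between groups could reverse, since no groups were compared. The side of the median of all genes on which a list lay could change. As reported 27 lists had a median above it, and the count fell as low as 25, without replicate 1. Without probe sets that can match several transcripts, 15 of the 40 brightest genes were shared with those reported. The count of 1152 genes spanning 2-fold ranged from 260 (without replicate 2) to 877 when 1 array was left out, where 591 belongs to leaving out replicate 3. It was 729 with the dim line at the 99th percentile of chemoreceptor genes, and 401 spanned a range of 1.5 or more. Replicate 2 stood apart in 508 genes, not 767, with that higher dim line. With families of 5 or more genes, 18 of the 30 families at the ends were the same. Of 524 levels 20 moved by more than the spread between arrays, as did 18 of 232 family medians and 49 of 248 list medians, mostly with the mean of probe sets or without shared probe sets. List medians that moved by over 1.5 times without shared probe sets were those of yolk (3.48), sperm (3.64), oocyte and eggshell (5.22), body wall muscle (10.28), pharyngeal muscle (9.46), pharyngeal gland (5.91), neuron (9.14), glia (4.28), translation (9.78), fat synthesis (11.17), lipase (7.75), general chaperone (10.19), small heat shock protein (8.05) and antioxidant genes (9.75). With the mean of probe sets they were those of body wall muscle (10.83), neuron (9.11), translation (9.57), tricarboxylic acid cycle (10.07), dauer (8.46) and heterochronic genes (6.79). The glia median, of 3 genes, was 8.29 without replicate 2 and 6.89 without replicate 3. Among families, eif had a median of 8.20 without shared probe sets and sel 8.25 with the mean of probe sets. The cause of these moves was not tested.

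No paired analysis was possible because no result comes from a test between groups. Protein lengths and promoter motifs of bright genes were planned but not run, and no sequences were used here. No detection calls were used, so values near the floor have no firm order.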
